A study of Mus musculus with 2 samples.

Results

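The 8 genes described here encode ion channels, exchangers and pumps of the sperm plasma membrane together with the soluble adenylyl cyclase. They are Kcnu1, Lrrc52, Slc9c1, Hvcn1, Atp1a4, Atp2b4, Slc26a8 and Adcy10. They were taken by symbol, with no threshold on their measured values, from 50686 annotated genes, of which 27280 had at least 1 UMI (unique molecular identifier, a count of captured mRNA molecules). All 8 symbols were found and all 8 were detected, with totals from 6 UMIs for Hvcn1 to 7910 for Atp1a4.

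Mammalian sperm do not fertilise until the ions across their membrane change in the female tract. Bicarbonate enters and activates the soluble adenylyl cyclase, the cAMP formed activates protein kinase A, protons leave the cell, potassium leaves through a sperm-specific channel, and calcium enters through the CatSper channel. Most of these proteins are found on the flagellum. Transcription stops as the spermatid nucleus condenses, so the mRNA for them is made earlier, in spermatocytes and round spermatids, and is partly stored for later translation.

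A piece of testis tissue from each of 2 wild-type C57Bl/6J Crl mice of 8 weeks was dissociated, and 1 droplet library of 3′ mRNA ends was made per mouse. No treatment or genotype was compared, so the comparisons here run between groups of cells along sperm development, with the mouse as the replicate. The suspension was passed through a strainer to reduce somatic cells. Only 18 cells fell outside the germ cell groups named next, of which 5 were Leydig-like, 7 Sertoli-like and 6 spermatogonium-like. The spermatogonium-like cells are germ cells but were too few to form a group. Mouse 1 gave 1237 cells and 27450497 UMIs, and mouse 2 gave 1315 cells and 30302332 UMIs, with medians of 17871 and 19184 UMIs per cell. The 2 libraries shared 0 cell barcodes, and 25 cells were called doublets and kept.

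Cells were clustered without the 8 genes and without the genes of the pathway lists used for comparison, and 6 clusters were ordered along sperm development. The early spermatocyte-like group held 164 cells, and 12 of its 14 markers were raised. The later spermatocyte-like group held 526 cells, with 6 of 12 markers of pachytene or later spermatocytes raised. A group of 690 cells led by the genes Ssxb1 and Ssxb2 had only 3 of 12 round spermatid markers raised and is called the Ssxb-rich group. The round spermatid-like group held 447 cells, with 10 of 12 markers raised. A group of 193 cells had 8 of 12 round spermatid markers and 13 of 13 markers of elongating or condensing spermatids raised, and is called round-to-condensing. The condensing spermatid-like group held 514 cells, with 13 of 13 of those markers raised and Prm1, a protamine gene, leading. Each group had cells of both mice, the fewest being 53 of mouse 1 in the early spermatocyte-like and 107 of mouse 2 in the round-to-condensing group. The groups differed in RNA content, with a median of 11718 UMIs per condensing spermatid-like cell against 18800 to 23995 in the other 5. The later spermatocyte-like group also held RNA-rich cells, with a median of 20843 but means of 33960 and 34036 UMIs in mice 1 and 2.

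The promoter sequences of 6 of the 8 genes were matched in RefSeq. Those of Slc9c1 and Slc26a8, which were highest in later spermatocyte-like cells, and of Lrrc52 and Atp1a4, which were highest in spermatid groups, are shown here because these pairs mark the contrasting patterns described below. Each runs 5′ to 3′ on the gene's strand, from 250 bases before the RefSeq start to 50 after it, in build GRCm38.p6. Slc9c1 lies at chr16:45535016-45535315 on the plus strand, Slc26a8 at chr17:28689938-28690237, Lrrc52 at chr1:167466731-167467030 and Atp1a4 at chr1:172258375-172258674, all on the minus strand. Capitals mark CCAAT (read as ATTGG on the other strand) and TAACNG, the letters bound by the MYB family, whose member MYBL1 drives many genes of pachytene spermatocytes.
Slc9c1: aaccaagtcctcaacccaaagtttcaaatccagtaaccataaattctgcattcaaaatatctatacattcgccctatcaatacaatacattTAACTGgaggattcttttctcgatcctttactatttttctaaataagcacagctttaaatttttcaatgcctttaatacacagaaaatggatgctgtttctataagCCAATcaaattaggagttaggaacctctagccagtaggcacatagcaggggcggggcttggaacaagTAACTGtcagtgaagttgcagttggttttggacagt
Slc26a8: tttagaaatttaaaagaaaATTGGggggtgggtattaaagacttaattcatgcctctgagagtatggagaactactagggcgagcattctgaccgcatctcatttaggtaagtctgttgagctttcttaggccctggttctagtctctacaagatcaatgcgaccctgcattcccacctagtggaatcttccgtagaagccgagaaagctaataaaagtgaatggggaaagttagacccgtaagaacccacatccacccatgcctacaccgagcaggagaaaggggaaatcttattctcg
Lrrc52: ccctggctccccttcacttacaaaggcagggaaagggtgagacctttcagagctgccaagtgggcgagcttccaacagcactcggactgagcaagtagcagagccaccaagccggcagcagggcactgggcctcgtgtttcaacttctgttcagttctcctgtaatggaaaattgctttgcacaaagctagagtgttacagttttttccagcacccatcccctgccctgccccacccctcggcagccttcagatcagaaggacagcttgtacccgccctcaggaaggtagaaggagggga
Atp1a4: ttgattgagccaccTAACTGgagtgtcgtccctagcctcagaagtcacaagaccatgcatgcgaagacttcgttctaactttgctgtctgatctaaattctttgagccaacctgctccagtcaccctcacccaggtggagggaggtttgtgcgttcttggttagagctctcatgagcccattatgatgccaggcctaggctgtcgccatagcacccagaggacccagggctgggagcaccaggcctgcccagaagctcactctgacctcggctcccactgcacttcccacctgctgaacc
The Slc9c1 window held TAACNG at 2 places and CCAAT at 1, the Atp1a4 window held TAACNG at 1 place, and the Lrrc52 window held neither. On both strands, CCAAT occurred in 37.4% and TAACNG in 23.3% of 32851 RefSeq promoters of this length, so such matches are common. The full cAMP response element TGACGTCA was in none of the 6 matched windows and in 1.79% of all promoters, its shorter form TGACG was in that of Atp2b4 only, against 20.8% of all, and GTTGCC, part of the X-box bound by RFX factors, was in none, against 12.5%. The base composition differed, from 37.3% G and C in Slc9c1 to 56.0% in Lrrc52, beside a median of 52.7% over all promoters. The gene starts in GENCODE and RefSeq were at the same base for Lrrc52 and Adcy10. The GENCODE start lay upstream of the RefSeq start for Slc26a8, at position -246, and for Atp2b4, at position -47294. The window searched for Atp2b4 is therefore not at its GENCODE start. Nearly all of the Slc26a8 window lies downstream of the GENCODE start, as does its marked ATTGG at position -231.

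The genes did not follow 1 common course. Atp2b4 was highest in early spermatocyte-like cells, Slc9c1 and Slc26a8 in later spermatocyte-like cells, Kcnu1, Lrrc52 and Adcy10 in round spermatid-like cells, and Atp1a4 in condensing spermatid-like cells, and in each of these 7 genes both mice had the same highest group. Levels are given as a gene's UMIs per 1000000 UMIs (CPM) of a group in a mouse. They follow the share of a gene in a cell's mRNA, so a gene's CPM can rise where the rest of the RNA falls, and fewer cells of a kind cannot be told apart from less RNA per cell in a sum over a group. Because only 3′ ends were counted, the levels of different genes are not compared with each other.

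**Figure D1:**
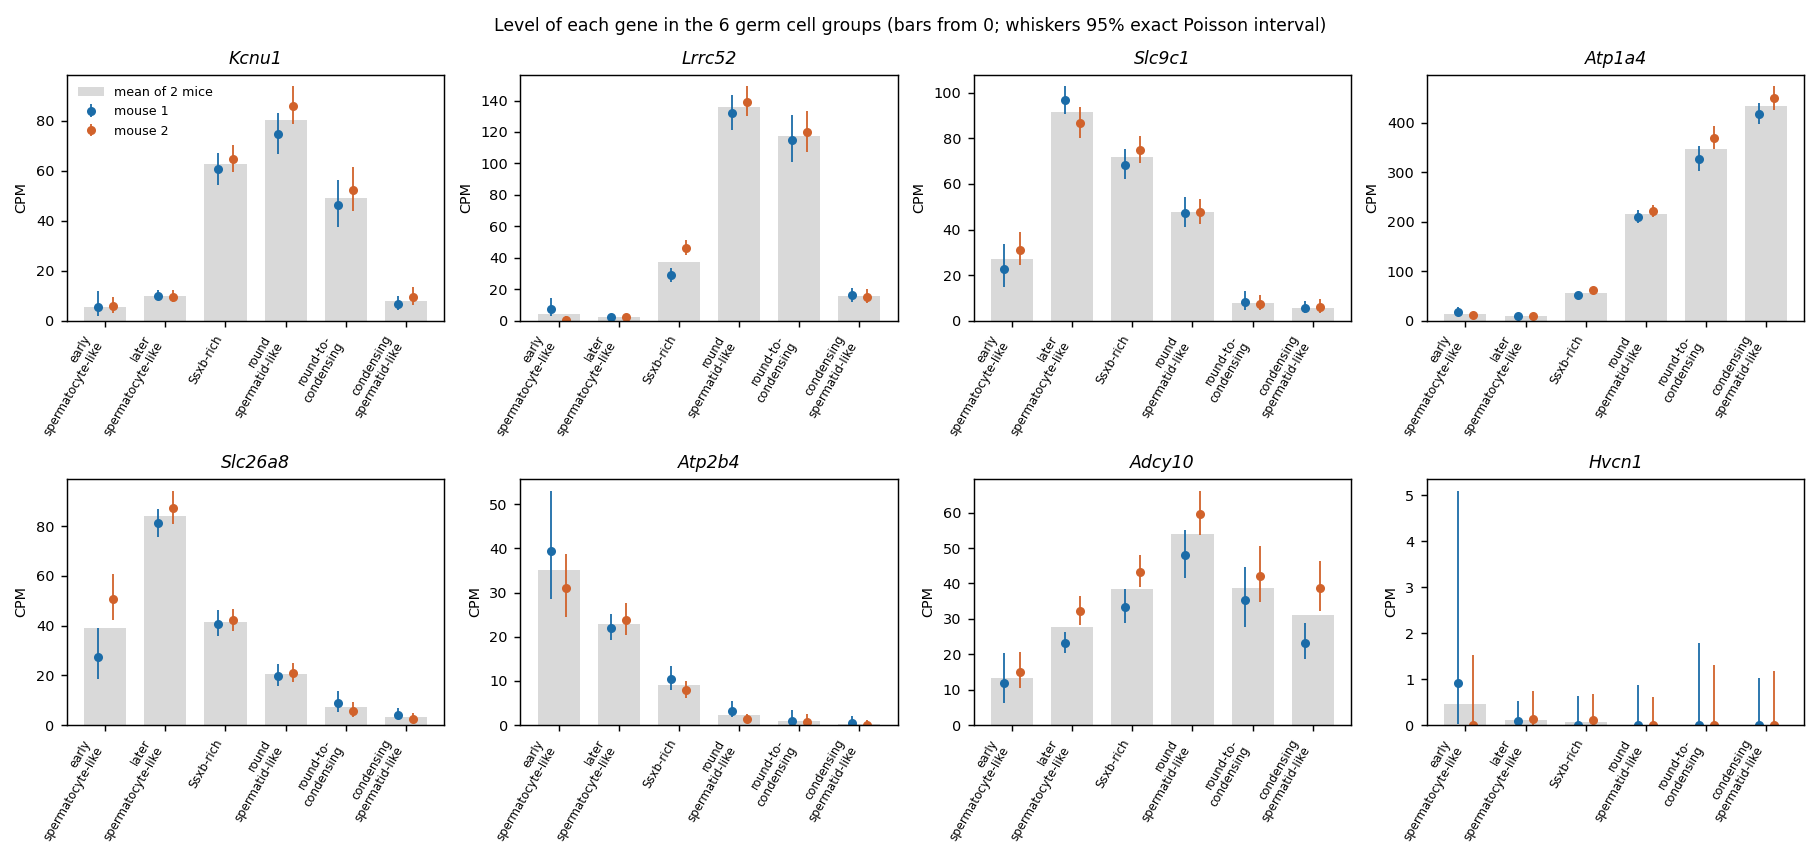
Level in CPM (vertical axes, each from 0) of the 8 genes in the 6 germ cell groups (horizontal axes, in developmental order), with the grey bar as the mean of 2 mice, the points as each mouse and the whiskers as the 95% exact Poisson interval of its count. Atp2b4 is highest in the early spermatocyte-like group, Slc9c1 and Slc26a8 in the later spermatocyte-like group, Kcnu1, Lrrc52 and Adcy10 in the round spermatid-like group and Atp1a4 in the condensing spermatid-like group, while Hvcn1 rests on 4 UMIs in the 6 groups.

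Changes between neighbouring groups were tested with edgeR on the summed counts of each group and mouse, with Benjamini-Hochberg adjustment over 14144 genes and an adjusted p under 0.05 for a call. Of the 8 genes, 7 passed the filter on low counts, and Hvcn1 did not. From the early to the later spermatocyte-like group, 4 of the 7 were called higher and 0 lower, against 25.5% and 24.5% of all genes tested. From there to the Ssxb-rich group, 4 were called higher and 2 lower, against 31.8% and 30.6%. From the Ssxb-rich to the round spermatid-like group, 4 were again called higher and 2 lower, against 25.6% and 20.1%. Fewer of the 7 were called at the last 2 steps, where the counts changed with the fit, and this is not read as a trait of these genes. To the round-to-condensing group 1 was called higher and 2 lower, against 23.3% and 20.6%, and from there to the condensing spermatid-like group 1 was called higher and 2 lower, against 16.3% and 23.5%. The 7 genes are few and were not chosen at random, so their shares are not set against these percentages by a test. The clusters were built from genes that vary with development in the same cells, so the p-values do not test whether development orders the groups. They set each change against a spread between the 2 mice that was estimated together over all groups. In the fit reported here the sums of a mouse were treated as independent.

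**Figure D2:**
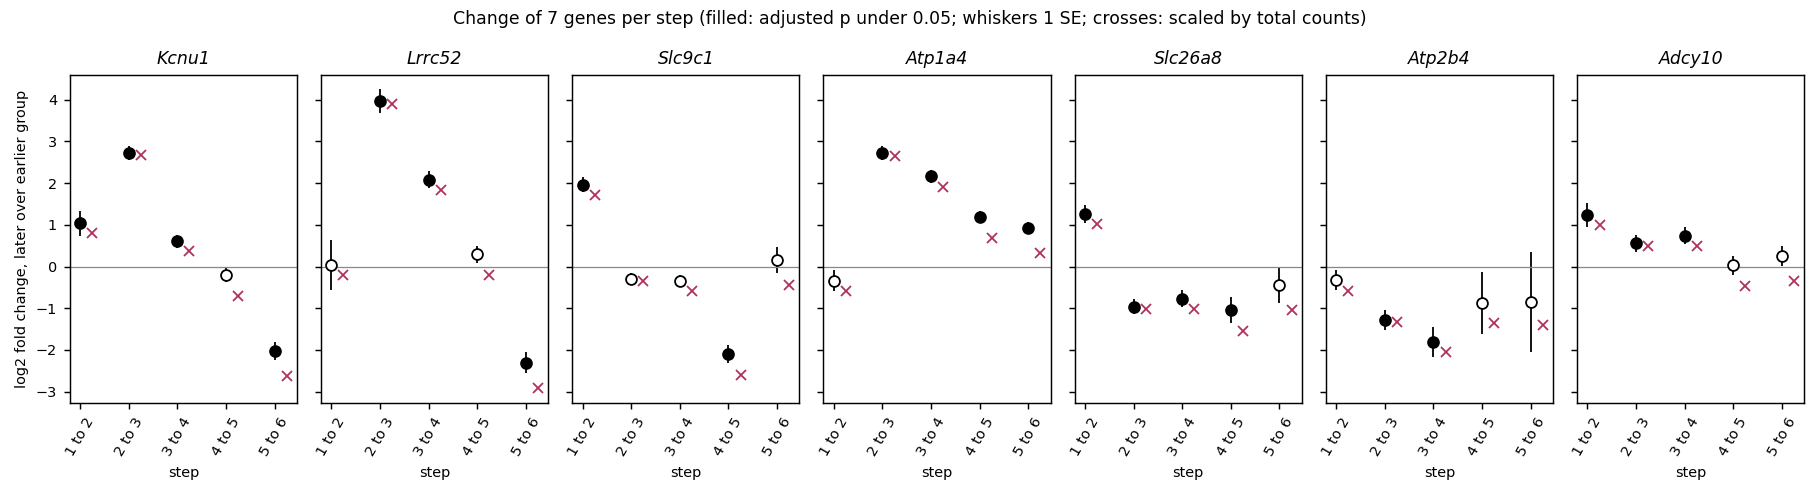
Log2 fold change (vertical axis, shared) of 7 genes at each of 5 steps between neighbouring groups, numbered 1 for early spermatocyte-like, 2 for later spermatocyte-like, 3 for Ssxb-rich, 4 for round spermatid-like, 5 for round-to-condensing and 6 for condensing spermatid-like, with 1 standard error as whiskers, filled circles at an adjusted p under 0.05 and crosses for the same fit scaled by total counts. The crosses lie below the circles by more at the last 2 steps, where the scalings differ most, and the rise of Atp1a4 at the last step is 0.92 with one scaling and 0.32 with the other.

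The scaling moved the values most at the late steps, where Prm1 went from 2523 CPM in round spermatid-like to 79757 CPM in condensing spermatid-like cells, and its part in this was not tested. The fit was scaled by the trimmed mean of M values (TMM), with factors from 1.65 in an early spermatocyte-like sum to 0.488 in a condensing spermatid-like sum. Scaling by total counts instead moved the median log2 change of all genes by -0.25, -0.06, -0.24, -0.50 and -0.60 at the 5 steps. Where a member's call or direction depends on this, both values are given.

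Kcnu1 (ENSMUSG00000031576) encodes SLO3, the pore of the potassium channel through which sperm hyperpolarise in response to alkalinisation. The gene spans chr8:25849623-25937939 on the plus strand of GRCm38. Its level was 5.50 and 5.78 CPM in the early and 10.1 and 9.66 CPM in the later spermatocyte-like cells of mice 1 and 2. It stood at 60.5 and 64.7 CPM in the Ssxb-rich group and at 74.5 and 86.0 CPM in round spermatid-like cells, and then at 46.1 and 52.2 CPM in round-to-condensing and 6.66 and 9.55 CPM in condensing spermatid-like cells. The 2 mice lay close together in every group and neighbouring levels did not overlap. The mean was 80.3 CPM ± 8.14 (SD, n = 2) in the highest group, 14.2-fold that in the lowest. The lowest level, in early spermatocyte-like cells, cannot be told apart from background, as described below. Kcnu1 rose by 2.72 ± 0.17 (log2 fold change ± SE) into the Ssxb-rich group with an edgeR adjusted p of 4.82e-12, its largest step, rose by a further 0.61 ± 0.15 into the round spermatid-like group (adjusted p = 0.00205), and fell by 2.02 ± 0.22 at the last step (adjusted p = 1.36e-07). The rise of 1.04 ± 0.30 between the spermatocyte-like groups had an edgeR adjusted p of 0.00619 but rested on 6 and 14 UMIs in the early group. It was not called by DESeq2 (0.77, adjusted p = 0.0769) or with clusters built from the 2000 most variable genes (0.38, adjusted p = 0.374). The change of -0.20 ± 0.16 into the round-to-condensing group was not called by edgeR (adjusted p = 0.351), while with total-count scaling it was -0.70 and called (adjusted p = 0.000761).

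Lrrc52 (ENSMUSG00000040485; chr1:167445669-167466780, minus strand) encodes the gamma subunit that joins SLO3 in sperm and shifts its activation. Its level was 7.33 and 0.826 CPM in the early spermatocyte-like cells of mice 1 and 2, from 8 and 2 UMIs, and 2.40 and 2.68 CPM in the later ones. It was 29.0 and 46.3 CPM in the Ssxb-rich group, 132 and 139 CPM in round spermatid-like cells, 115 and 120 CPM in round-to-condensing cells and 16.1 and 15.3 CPM in condensing spermatid-like cells. The spermatocyte-like groups overlapped, and the other neighbours in the order of levels did not. The mean of 136 CPM ± 5.09 (SD, n = 2) in round spermatid-like cells was 53.4-fold that in later spermatocyte-like cells. In those later cells Lrrc52 lay below the median of the markers used below to gauge background, so this fold rests on a level near background. Lrrc52 rose by 3.96 ± 0.28 into the Ssxb-rich group (edgeR adjusted p = 3.97e-11) and by 2.08 ± 0.21 into the round spermatid-like group (2.49e-08). It fell by 2.30 ± 0.25 at the last step (edgeR adjusted p = 1.18e-07). The change of 0.29 ± 0.20 into the round-to-condensing group was not called by edgeR (adjusted p = 0.264) but was called with the mouse as a replicate block (adjusted p = 0.0399), and it was -0.21 with total-count scaling.

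The pore gene and the subunit gene therefore had the same highest group but different courses before it. In the Ssxb-rich group Kcnu1 was at 60.5 and 64.7 CPM, against 74.5 and 86.0 CPM in round spermatid-like cells, whereas Lrrc52 was at 29.0 and 46.3 CPM against 132 and 139 CPM. Over the 12 sums of 6 groups and 2 mice their log2 levels had a Pearson correlation of 0.863, given as a description since the sums share libraries and depth. Within round spermatid-like cells, thinned to 5000 UMIs per cell, 30 of 188 cells of mouse 1 and 50 of 259 of mouse 2 held a UMI of both. The product of the separate shares gives 30.7 and 48.0 cells, so no excess of cells with both was seen at this depth. Without thinning, 79.3% and 84.9% of these cells had a Kcnu1 UMI and 93.1% and 91.9% an Lrrc52 UMI, and with thinning 33.0% and 39.0% and 49.5% and 47.5%. In later spermatocyte-like cells, of similar median depth, an Lrrc52 UMI was in 7.82% and 8.22% of cells without thinning and 0.651% and 2.74% with it.

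The other channels of the Slo family and the other gamma subunits were near the limit of detection. Of 6 genes in that list, 5 were detected and only Lrrc26, a gamma subunit of the BK channel known from secretory epithelia, passed the filter, with 113 UMIs in all. Lrrc26 was at 6.66 CPM ± 1.18 (SD, n = 2) in round-to-condensing cells and 0.163 ± 0.0408 in later spermatocyte-like cells. It rose at each of the 3 steps between those groups, by 2.62, 1.37 and 1.92 (edgeR adjusted p = 0.00359, 0.0248 and 0.000754). The second of these was not called with total-count scaling (1.13, adjusted p = 0.0545). Kcnma1, the BK channel pore, had 55 UMIs with its highest mean of 1.69 CPM in the Ssxb-rich group, and Lrrc55 had 11 UMIs.

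Slc9c1 (ENSMUSG00000033210; chr16:45535309-45607001, plus strand) encodes the sperm-specific sodium-proton exchanger, a protein with a voltage sensor and a cyclic nucleotide binding domain that is needed for sperm motility and for normal amounts of soluble adenylyl cyclase. Its level was 22.9 and 31.0 CPM in the early spermatocyte-like cells of mice 1 and 2, and 96.7 and 86.7 CPM in the later ones. It was lower at each later stage, with 68.5 and 74.8 CPM in the Ssxb-rich group, 47.3 and 47.7 CPM in round spermatid-like cells, 8.25 and 7.50 CPM in round-to-condensing cells and 5.55 and 6.05 CPM in condensing spermatid-like cells. The mice did not overlap between any neighbours in this order. The mean of 91.7 CPM ± 7.08 (SD, n = 2) in later spermatocyte-like cells was 15.8-fold that in condensing spermatid-like cells. That lowest level rested on 20 and 19 UMIs in mice 1 and 2, and the part of background in it was not tested. Slc9c1 rose by 1.96 ± 0.18 between the spermatocyte-like groups (edgeR adjusted p = 1.09e-08) and fell by 2.10 ± 0.23 between the round spermatid-like and round-to-condensing groups (7.46e-08). The 2 steps between them, -0.29 ± 0.15 and -0.35 ± 0.15, were not called by edgeR (adjusted p = 0.0843 and 0.0699). They were called with the mouse as a replicate block (adjusted p = 0.0148 and 0.0128) and with total-count scaling (-0.36 and -0.59, adjusted p = 0.0249 and 0.00145). At the last step the value was 0.16 ± 0.31 (edgeR adjusted p = 0.748), and -0.44 with total-count scaling.

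Slc9c1 was in most later spermatocyte-like cells. It had a UMI in 276 of 307 such cells of mouse 1, or 89.9% (95% exact binomial interval 86.0 to 93.0), and in 188 of 219 of mouse 2, or 85.8% (80.5 to 90.2). Thinned to 5000 UMIs, the shares were 41.7% and 36.1%. In condensing spermatid-like cells they were 7.04% and 6.09% without thinning and 4.23% and 3.04% with it. These intervals, like the Poisson intervals, cover counting error only.

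Among 11 other sodium-proton exchangers, 4 passed the filter, and they did not share 1 course. Slc9b1, a testis exchanger found on the sperm flagellum, was highest in later spermatocyte-like cells as Slc9c1 was, at 387 CPM ± 30.9 (SD, n = 2), and 19.0 ± 0.253 in condensing spermatid-like cells. It rose by 1.14 ± 0.14 into that group (edgeR adjusted p = 3.50e-07) and fell at 3 of the 4 later steps. The remaining change, -0.26 from the Ssxb-rich to the round spermatid-like group, was not called by edgeR (adjusted p = 0.119) but was with the replicate block (adjusted p = 0.0358) and with total-count scaling (-0.50, adjusted p = 0.000978). Slc9a8, an exchanger of the Golgi and the acrosome, rose by 1.03 ± 0.29 into the round-to-condensing group (edgeR adjusted p = 0.00635), which was 0.53 and not called with total-count scaling (adjusted p = 0.122). Slc9a8 was at 14.8 CPM ± 4.39 in that group and at 14.7 ± 2.61 in early spermatocyte-like cells. Over the 5 steps this list had 1, 1, 0, 1 and 0 genes called higher and 0, 2, 0, 2 and 3 lower. Of all genes tested, 25.5%, 31.8%, 25.6%, 23.3% and 16.3% were called higher and 24.5%, 30.6%, 20.1%, 20.6% and 23.5% lower.

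Hvcn1 (ENSMUSG00000064267; chr5:122206804-122242297, plus strand) encodes the voltage-gated proton channel, the main route of proton exit in human sperm. It had 6 UMIs in 6 cells over both mice, and 27280 detected genes ranked by UMIs placed it at 20206. In mouse 1 the UMIs were 1 in an early and 1 in a later spermatocyte-like cell, and in mouse 2 they were 1 in a later spermatocyte-like cell, 1 in an Ssxb-rich cell and 2 in 2 of 4 Leydig-like cells. No UMI fell in round spermatid-like, round-to-condensing or condensing spermatid-like cells of either mouse. With 0 of 447 round spermatid-like cells, a share of up to 0.671% of cells with a UMI is allowed, and 0 of 514 condensing spermatid-like cells allows up to 0.584%. A count of 0 there corresponds to at most 0.291 and 0.445 CPM (3 counts of the group's total). No trend could be read from so few counts. Hvcn1 overlaps Tctn1 by 4450 bases on the opposite strand, and Tctn1 had 724 UMIs.

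Atp1a4 (ENSMUSG00000007107; chr1:172223513-172258414, minus strand) encodes the alpha 4 isoform of the sodium-potassium ATPase, which is found in sperm and is needed for their motility. Its level was 18.3 and 11.1 CPM in the early spermatocyte-like cells of mice 1 and 2, and 8.92 and 9.26 CPM in the later ones. It was higher at every following stage, with 51.6 and 62.8 CPM in the Ssxb-rich group, 211 and 222 CPM in round spermatid-like cells, 327 and 370 CPM in round-to-condensing cells and 419 and 450 CPM in condensing spermatid-like cells. The mice did not overlap between any neighbours in this order. The mean of 434 CPM ± 22.1 (SD, n = 2) in condensing spermatid-like cells was 47.8-fold that in later spermatocyte-like cells. In those later cells Atp1a4 lay below the median of the markers used below to gauge background. The fold therefore rests on a level near background. The first step, -0.34 ± 0.26, was not called by edgeR (adjusted p = 0.294). Atp1a4 rose by 2.72 ± 0.18, 2.16 ± 0.15 and 1.19 ± 0.15 at the 3 steps from later spermatocyte-like to round-to-condensing cells (edgeR adjusted p = 7.19e-12, 1.27e-10 and 4.52e-07). The last rise was 0.92 ± 0.14 (edgeR adjusted p = 2.00e-05), but 0.32 with total-count scaling, where it was not called (adjusted p = 0.0603). Per cell, the mean was 8.75 UMIs ± 1.31 (SD, n = 2) in round-to-condensing cells and 5.73 ± 0.587 in condensing spermatid-like cells, which held fewer UMIs in all. A UMI was found in 98.2% and 96.1% of condensing spermatid-like cells of the 2 mice, and in 85.6% and 83.9% after thinning.

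Of 14 genes in the list of other sodium-potassium ATPase subunits, 5 passed the filter. At the last step 4 of these were called higher and 0 lower, against 16.3% and 23.5% of all genes tested. Their median log2 change was 0.96 against -0.00 over all genes. With total-count scaling 0 of the 5 were called there and their median was 0.36, so these calls depend on the scaling. Atp1b3, a beta subunit needed to bring the alpha chain to the membrane, was at 65.8 CPM ± 13.1 (SD, n = 2) in early spermatocyte-like cells. It was at 35.6 ± 2.20 in later spermatocyte-like and 224 ± 74.6 in condensing spermatid-like cells. It rose by 0.59, 1.56 and 1.20 at the 3 steps up to the round-to-condensing group (edgeR adjusted p = 0.0149, 8.96e-07 and 2.22e-05). The last step was 0.72 (edgeR adjusted p = 0.00450) but 0.12 and not called with total-count scaling (adjusted p = 0.669), and in CPM Atp1b3 went from 179 to 171 in mouse 1 and from 231 to 276 in mouse 2. Fxyd2, a regulatory subunit known from the kidney, was at 42.3 CPM ± 4.94 in early and 19.1 ± 1.76 in later spermatocyte-like cells. In condensing spermatid-like cells Fxyd2 was at 52.4 CPM ± 1.53, and Fxyd5 ranged from 11.6 to 18.8 CPM over the 6 groups.

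Atp2b4 (ENSMUSG00000026463; chr1:133699457-133801041, minus strand) encodes PMCA4, the plasma membrane calcium pump that returns calcium to resting levels in sperm. Its mRNA was highest early. The level was 39.4 and 31.0 CPM in the early spermatocyte-like cells of mice 1 and 2, 22.1 and 23.7 CPM in the later ones, 10.3 and 7.92 CPM in the Ssxb-rich group and 3.28 and 1.32 CPM in round spermatid-like cells. In round-to-condensing cells 2 UMIs were left in each mouse, and in condensing spermatid-like cells 2 in mouse 1 and 0 in mouse 2. The mice did not overlap between neighbours in this order, though the last 2 groups hold too few counts to separate. Atp2b4 fell by 1.28 ± 0.24 into the Ssxb-rich group (edgeR adjusted p = 7.03e-05) and by 1.81 ± 0.35 into the round spermatid-like group (0.000191). The first step, -0.33 ± 0.24, was not called by edgeR (adjusted p = 0.280), and per cell the mean was 0.743 UMIs ± 0.0959 (SD, n = 2) in early and 0.779 ± 0.0417 in later spermatocyte-like cells. Outside the germ cells, 6 of 7 Sertoli-like cells held 14 Atp2b4 UMIs, or 165 CPM (95% exact Poisson interval 90.3 to 277), and no UMI was found in 5 Leydig-like cells. Of the 7 Sertoli-like cells, 6 were of mouse 1, with 11 of the UMIs, and only 1 was of mouse 2, with 3. Of 15 Sertoli markers, 5 of the 14 that were scored were raised in the early spermatocyte-like group and 0 in the 5 later groups. Their summed level was 166 and 62.8 CPM in the early group of mice 1 and 2, and 21.2 to 62.1 CPM in the later groups. In the early group most of these UMIs were of Ctsl and Clu, while Fshr was at 0, Sox9 at 0 and 2 UMIs and Amh at 1 and 4 UMIs. The part of Sertoli RNA in the early Atp2b4 level was not tested. No other gene of the 8 had more than 4 UMIs in these 7 cells. Over the 12 sums the log2 levels of Atp2b4 and Atp1a4 had a Pearson correlation of -0.969, given as a description.

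Other calcium pumps were highest at different stages. Of 8 genes in the list, 7 were detected and 4 passed the filter. Atp2a2, which encodes the SERCA2 pump of the endoplasmic reticulum, went the way of Atp2b4, from 68.0 CPM ± 0.991 (SD, n = 2) in early spermatocyte-like to 1.77 ± 0.248 in condensing spermatid-like cells, with a fall of 1.78 ± 0.20 at the first step (edgeR adjusted p = 1.90e-07) and called falls at the next 2 (0.000630 and 0.00624). Atp2c1, the Golgi pump SPCA1, rose by 3.69 ± 0.27 into the round-to-condensing group (edgeR adjusted p = 1.02e-10), where it stood at 39.0 CPM ± 4.40. Atp2b2, which encodes the related plasma membrane pump PMCA2, rose at the same step by 4.81 ± 0.44 (edgeR adjusted p = 4.33e-09), from 0.764 CPM ± 0.0867 to 15.6 ± 2.17. Atp2b2 had 148 UMIs in all, and its level before the rise was near the limit of detection, so the size of the rise is uncertain. Over the 5 steps the list had 1, 0, 1, 2 and 0 genes called higher and 2, 1, 1, 0 and 1 lower. The shares of all genes tested at these steps are those given for the exchangers.

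Slc26a8 (ENSMUSG00000036196; chr17:28637783-28690233, minus strand) encodes TAT1, an anion transporter of the germ line that lies at the annulus of the sperm tail, interacts with CFTR and is needed for flagellar structure and motility. Its level was 27.5 and 50.8 CPM in the early spermatocyte-like cells of mice 1 and 2, and 81.1 and 87.3 CPM in the later ones. It then stood at 40.7 and 42.1 CPM in the Ssxb-rich group, 19.9 and 21.0 CPM in round spermatid-like cells, 8.74 and 5.72 CPM in round-to-condensing cells and 4.16 and 2.55 CPM in condensing spermatid-like cells. The mice differed in the early group by more than their counting intervals (18.5 to 39.2 and 42.2 to 60.6 CPM), and this group overlapped the Ssxb-rich group, but no other neighbours overlapped. The mean of 84.2 CPM ± 4.38 (SD, n = 2) in later spermatocyte-like cells was 25.1-fold that in condensing spermatid-like cells. That lowest level rested on 15 and 8 UMIs in mice 1 and 2, and the part of background in it was not tested. Slc26a8 rose by 1.26 ± 0.21 between the spermatocyte-like groups (edgeR adjusted p = 2.92e-05), by 1.93 in mouse 1 alone and 0.95 in mouse 2 alone. It fell by 0.96 ± 0.18, 0.77 ± 0.21 and 1.04 ± 0.31 at the next 3 steps (edgeR adjusted p = 0.000102, 0.00359 and 0.00798). The last of these was not called with clusters from the 2000 most variable genes (-0.70, adjusted p = 0.0780) or with Leiden clusters (-0.56, adjusted p = 0.172). The final step of -0.45 ± 0.43 was not called by edgeR (adjusted p = 0.441) but was with total-count scaling (-1.04, adjusted p = 0.0489).

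Slc9c1 and Slc26a8 had the same highest group and a Pearson correlation of 0.925 between their log2 levels over the 12 sums. Slc26a8 had called falls at the second and the third step, while those of Slc9c1 were not called in the fit reported here. The Slc9c1 falls were called with total-count scaling, with the mouse as a replicate block and without doublets. Whether the falls of the 2 genes differed was not tested. Within later spermatocyte-like cells thinned to 5000 UMIs, 45 of 307 cells of mouse 1 and 30 of 219 of mouse 2 held both, beside 43.4 and 29.6 from the product of the shares. In this group the 2 mRNAs were thus as common in the same cells as their separate shares give. In early spermatocyte-like cells, also thinned, 1 cell of mouse 1 and 6 of mouse 2 held both, against 0.755 and 1.99. In the Ssxb-rich group 16 and 27 did, against 18.1 and 21.8, and in round spermatid-like cells 2 and 4, against 3.35 and 4.73.

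Of 26 other genes of anion and bicarbonate transport, 24 were detected and 7 passed the filter. From later spermatocyte-like to Ssxb-rich cells 5 of the 7 were called higher and 0 lower, against 31.8% and 30.6% of all genes tested. Their median log2 change there was 0.99 against -0.03 over all genes. At the last step 1 was called higher and 3 lower, against 16.3% and 23.5%, with a median of -1.51 against -0.00. Slc4a8, a sodium-driven bicarbonate exchanger, had its highest mean in later spermatocyte-like cells at 39.7 CPM ± 3.33 (SD, n = 2), and Slc4a7, a sodium-bicarbonate cotransporter, in round spermatid-like cells at 36.5 ± 0.0451. In mouse 2 Slc4a8 was at 37.6 CPM in early and 37.3 CPM in later spermatocyte-like cells, so its highest group is not certain. Car2, which encodes carbonic anhydrase 2, an enzyme that forms bicarbonate from carbon dioxide, went from 40.3 CPM ± 0.388 in round spermatid-like to 312 ± 32.4 in round-to-condensing and 961 ± 103 in condensing spermatid-like cells. Its rises at these steps were 3.45 ± 0.18 and 2.22 ± 0.16 (edgeR adjusted p = 4.17e-13 and 2.83e-10).

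Adcy10 (ENSMUSG00000026567; chr1:165485183-165576774, plus strand) encodes the soluble adenylyl cyclase, the enzyme that makes cAMP in response to bicarbonate and calcium. It had the flattest course of the 7 genes tested. The level was 11.9 and 14.9 CPM in the early spermatocyte-like cells of mice 1 and 2, 23.1 and 32.2 CPM in the later ones, 33.4 and 43.3 CPM in the Ssxb-rich group and 48.0 and 59.8 CPM in round spermatid-like cells. It was 35.4 and 42.2 CPM in round-to-condensing cells and 23.3 and 38.8 CPM in condensing spermatid-like cells. Mouse 2 had the higher level in all 6 groups. Only the top group and the bottom group stood apart from their neighbours in the order of levels, and the 4 between them overlapped. The mean of 53.9 CPM ± 8.30 (SD, n = 2) in round spermatid-like cells was 4.03-fold that in early spermatocyte-like cells. Adcy10 rose at the first 3 steps, by 1.23 ± 0.29, 0.55 ± 0.21 and 0.73 ± 0.21 (edgeR adjusted p = 0.00116, 0.0243 and 0.00537). The second of these rises was not called by DESeq2 (adjusted p = 0.0584), with Leiden clusters (0.0731) or without doublets (0.138). The third was not called with total-count scaling (0.49, adjusted p = 0.0540). At the last 2 steps the values were 0.03 ± 0.23 and 0.26 ± 0.24 (edgeR adjusted p = 0.930 and 0.432), and -0.47 and -0.34 with total-count scaling.

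Slc9c1 and Adcy10, whose proteins are linked in sperm, had different courses. In both mice Adcy10 was lower, and Slc9c1 higher, in the later spermatocyte-like group than in the round spermatid-like one, and their correlation over the 12 sums was 0.0595. In round spermatid-like cells thinned to 5000 UMIs, 5 of 188 cells of mouse 1 and 13 of 259 of mouse 2 held a UMI of both, against 8.27 and 16.3 from the product of the shares. In later spermatocyte-like cells 14 and 17 cells held both, against 14.2 and 14.8. In the Ssxb-rich group 17 and 20 did, against 13.2 and 21.2. Each of the remaining groups held at most 2 such cells in a mouse.

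Of 15 other genes of cAMP synthesis and protein kinase A, 13 were detected and 8 passed the filter. Over the 5 steps 3, 3, 1, 1 and 1 of them were called higher and 1, 2, 3, 2 and 1 lower, beside the shares of all genes tested given for the exchangers. Prkaca, the catalytic subunit, was highest in the Ssxb-rich group at 97.5 CPM ± 2.35 (SD, n = 2) and fell by 2.78 ± 0.28 into the round-to-condensing group (edgeR adjusted p = 3.04e-08). Prkar1a, a regulatory subunit, was also highest in the Ssxb-rich group, at 525 CPM ± 28.2, and fell by 1.27 ± 0.17 at that later step (edgeR adjusted p = 2.12e-06). Prkar2a, the regulatory subunit that is anchored along the sperm tail, rose by 3.35 ± 0.29 at the same step (edgeR adjusted p = 2.76e-09) and was at 568 CPM ± 249 in condensing spermatid-like cells.

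The CatSper channel admits calcium into the same flagellum and responds to the same rise in pH, so its subunits were counted as well. All 9 subunit genes found in the table passed the filter. From later spermatocyte-like to Ssxb-rich cells 4 were called higher and 4 lower, against 31.8% and 30.6% of all genes tested. At the last step 2 were called higher and 5 lower, against 16.3% and 23.5%, with a median log2 change of -1.22 against -0.00. With total-count scaling 0 were called higher and 6 lower at that step. Catsper2 was highest in the same group as Slc9c1, at 304 CPM ± 19.1 (SD, n = 2) in later spermatocyte-like cells after a rise of 2.29 ± 0.15 (edgeR adjusted p = 7.79e-11). Catsper3 and Efcab9 were highest in round spermatid-like cells, at 339 CPM ± 12.3 and 469 ± 31.0, as Kcnu1 and Lrrc52 were, with rises of 5.005 ± 0.19 and 4.87 ± 0.18 into the Ssxb-rich group (edgeR adjusted p = 2.13e-15 and 1.94e-15). Over all 7 lists, 38 of 92 listed symbols passed the filter, and a few of the CatSper symbols were not among the annotated genes. The numbers called higher at the 5 steps were 10, 16, 10, 9 and 8, and those called lower were 7, 9, 5, 11 and 13. Of all genes tested, 25.5%, 31.8%, 25.6%, 23.3% and 16.3% were called higher and 24.5%, 30.6%, 20.1%, 20.6% and 23.5% lower.

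**Figure D3:**
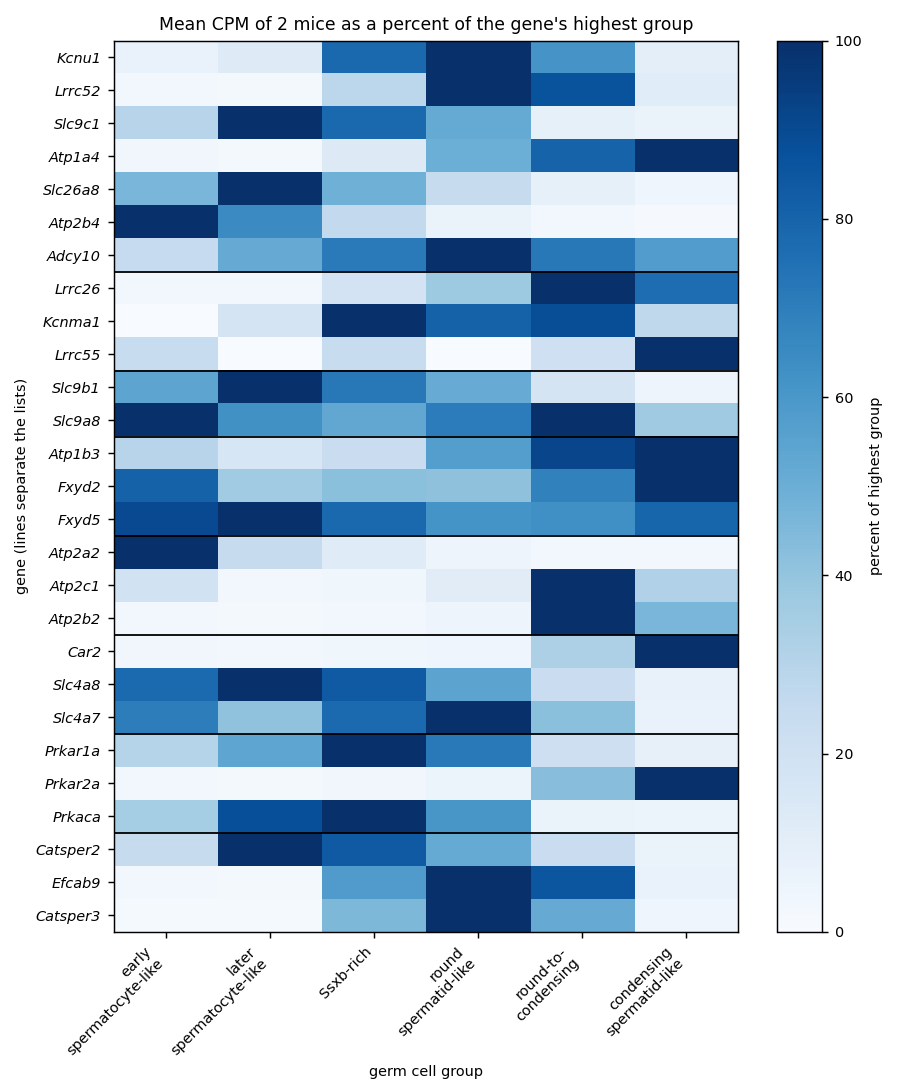
Mean level of 2 mice in each of the 6 germ cell groups (columns, in developmental order) as a percent of the gene's own highest group (colour scale, 0 to 100), for 7 of the 8 genes (top block) and up to 3 genes with most UMIs of each pathway list (blocks below, in the order Slo channels, sodium-proton exchangers, sodium-potassium ATPase, calcium pumps, anion and bicarbonate transport, cAMP and protein kinase A, CatSper). Slc9c1, Slc26a8, Slc9b1, Slc4a8 and Catsper2 are darkest in the later spermatocyte-like column, Kcnu1, Lrrc52, Adcy10, Catsper3 and Efcab9 in the round spermatid-like column, and Atp1a4, Atp1b3, Car2 and Prkar2a in the condensing spermatid-like column.

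A finer view came from dividing the 2534 cells of the germ cell groups into 20 bins of equal size along the pseudotime order. The bin in which a gene first reached 50% of its highest bin was 1 for Atp2b4, 2 for Slc9c1 and Slc26a8, 3 for Adcy10, 7 for Kcnu1, 12 for Lrrc52 and 14 for Atp1a4. In the separate mice these bins were the same except for Lrrc52, at 11 in mouse 1, and Adcy10, at 8 in mouse 1. The early bin of Adcy10 is marginal, with a highest bin of 58.4 CPM over both mice. Adcy10 was at 25.3 and 36.8 CPM in bin 3 of mice 1 and 2, and at 23.7 and 24.7 CPM in bin 5. Bin 7 is where the cells were first all of the Ssxb-rich group. Kcnu1 stood there at 47.9 and 57.8 CPM in mice 1 and 2, while Lrrc52 was still at 11.0 and 14.02 CPM, and Lrrc52 reached 149 and 162 CPM in bin 14. Atp1a4 was at 28.3 and 28.0 CPM in bin 7, at 256 and 256 CPM in bin 14 and at 425 and 462 CPM in bin 18.

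The decline was also staggered. The last bin at or above 50% of the highest was 6 for Atp2b4, 7 for Slc26a8, 13 for Slc9c1, 15 for Kcnu1 and Lrrc52, and 20 for Atp1a4 and Adcy10. In mice 1 and 2 apart, Slc26a8 gave 11 and 7 and Slc9c1 11 and 13, while Atp2b4, Lrrc52 and Adcy10 moved by 1 bin in 1 of the mice. Between bins 14 and 16 Lrrc52 went from 149 to 57.7 CPM in mouse 1 and from 162 to 85.4 CPM in mouse 2, as Prm1 over both mice went from 3046 to 46249 CPM. Slc9c1 was at 51.0 and 38.9 CPM in bin 14 and 5.92 and 7.36 CPM in bin 16. These bins mix groups, since 50% of the cells of bin 15 were round-to-condensing and 52.4% of those of bin 16 condensing spermatid-like. The highest bin itself was less certain, at 10 and 14 for Kcnu1 and 2 and 6 for Slc9c1 in mice 1 and 2. All bin levels are CPM by total counts, without the TMM factors of the fit. Those factors were 1.06 in a round spermatid-like sum and 0.488 in a condensing spermatid-like sum. The late bins at 50% of the highest may therefore depend on the scaling, which was not tested.

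**Figure D4:**
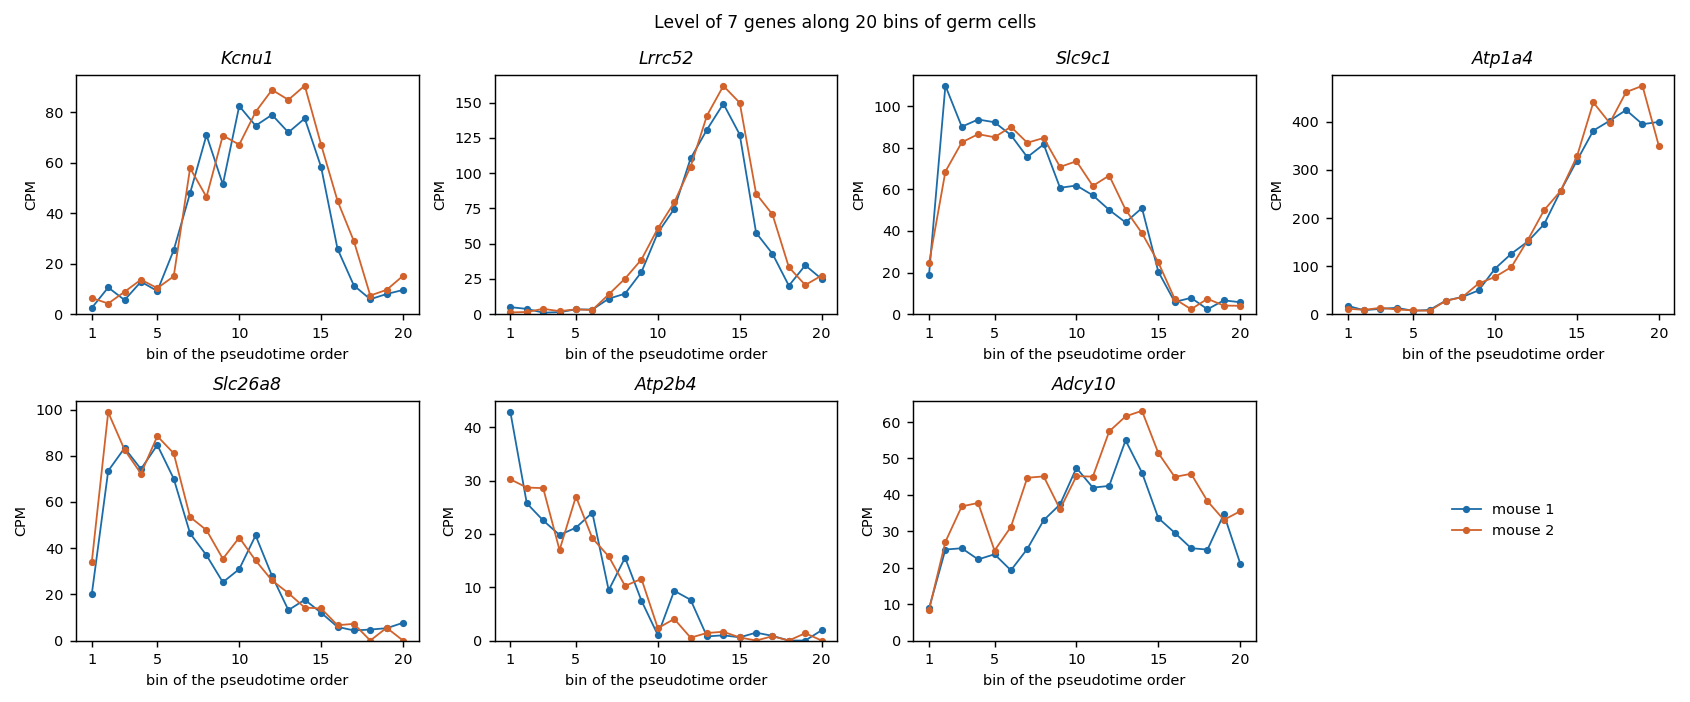
Level in CPM (vertical axes, each from 0) of 7 genes in 20 equal bins of germ cells along the pseudotime order (horizontal axes, from early spermatocyte-like on the left to condensing spermatid-like on the right), with 1 line per mouse. Slc9c1 and Slc26a8 rise by bin 2, Kcnu1 at bin 7, Lrrc52 reaches 50% of its maximum at bin 12 and Atp1a4 at bin 14, and the lines of the 2 mice follow the same course, with Adcy10 lower in mouse 1 in most bins.

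Messenger RNA freed from broken cells gives UMIs in cells that do not express a gene, and it bears on the low levels in spermatocytes. It bears as well on low levels in condensing spermatid-like cells, where background was not gauged. The 13 markers of elongating or condensing spermatids, which early spermatocytes should lack, were measured in early spermatocyte-like cells at a median of 18.5% of their level over all cells in mouse 1 (range 12.0 to 28.2) and 12.7% in mouse 2 (8.76 to 19.5). By the same measure Kcnu1 was at 16.7% and 13.2%, Lrrc52 at 18.9% and 1.53% and Atp1a4 at 14.4% and 7.66%. These values lay within or below the range of the markers, so for these 3 genes in early spermatocyte-like cells low expression and background cannot be told apart. Slc9c1 (37.5% and 56.1%), Slc26a8 (60.9% and 121%), Atp2b4 (298% and 284%) and Adcy10 (40.2% and 36.3%) were above the whole range of those markers. In later spermatocyte-like cells the markers had a median of 8.97% and 9.44%, with Lrrc52 at 6.18% and 4.97%, Atp1a4 also below it in both mice, and Kcnu1 above it at 30.5% and 22.1%.

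No single cell showed the whole set, and only 6 cells in all held a UMI of Hvcn1. The mean number of the 8 genes with a UMI in a cell was 1.85 and 1.93 in early spermatocyte-like cells of mice 1 and 2 and 4.48 and 4.49 in round spermatid-like cells, and the most in any cell was 7. Thinned to 5000 UMIs, the means were 0.679 and 0.586, and 2.02 and 2.05. Round spermatid-like cells were the highest group both ways.

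The genes whose log2 levels over the 12 sums were most like each member's were taken among 7889 genes with at least 500 UMIs. For Kcnu1 they were Ccdc81, Ppp1r32 and Eif2s3y (Pearson correlation 0.995, 0.993 and 0.992), and for Lrrc52 4930440I19Rik, Gm43208 and 4930568D16Rik (0.995, 0.990 and 0.989). For Slc9c1 they were Ovol2, Adam1b and Prkra (0.996, 0.994 and 0.993), and for Slc26a8 Pde4dip, Rpusd3 and Hn1 (0.997, 0.992 and 0.990). These lists are short descriptions of shared courses over few points from 2 libraries. For Atp1a4 they were Aif1, Ccdc54 and Cypt1 (0.999, 0.999 and 0.997), and for Atp2b4 Ahdc1, Eif6 and Snrpa1 (0.998, 0.995 and 0.992). Adcy10 had looser neighbours, among them Dnali1 and Dnajc18 (0.968 and 0.941), of which Dnali1 encodes a protein of the axoneme, the microtubule core of the flagellum. Of these 7 sets of 3, the order by Spearman correlation kept only Dnali1 for Adcy10 and no gene for the other members. Pearson correlation over the 20 bins of each mouse kept more. Kept were Ccdc81 and Eif2s3y for Kcnu1, Adam1b for Slc9c1 and Pde4dip for Slc26a8. Also kept were Aif1 and Ccdc54 for Atp1a4 and Dnali1 for Adcy10, but no gene for Lrrc52 or Atp2b4.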

How the data were processed

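Testis cells of 2 mice were profiled with the Chromium 3′ v2 kit. According to the study's methods, reads were demultiplexed with Cell Ranger 2.0.0 and bcl2fastq 2.17.1.14, aligned to repeat-masked GRCm38 with Ensembl genes and added transposon sequences, counted, and combined between mice after downsampling to equal mean reads per cell. The deposited values are UMI counts per gene and cell (51868 rows). The barcode endings 1 and 2 were read as mice 1 and 2. Cells held 7114 to 154431 UMIs.

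Here, counts were scaled to the median depth, log2-transformed after adding 1 and standardised. K-means (K = 9, 10 principal components, as in the study's choice of K, scikit-learn 1.9.0) gave the clusters. Clusters of at least 50 cells were ordered by diffusion pseudotime over germ cells (scanpy 1.11.5, 30 neighbours, 20 components). This ordering was chosen after a first one over all cells (15 neighbours, 10 components) had put the protamine-rich cluster at place 4 of 6. Clusters were named from marker lists (a gene raised 1.5-fold counted as up). Counts were summed per cluster and mouse and tested with edgeR 4.0.16 (quasi-likelihood, TMM, filterByExpr), after a test on simulated counts, with DESeq2 1.42.0 as an alternative. The sums of a mouse pair across clusters, since they come from the same animal, and their deviations correlated by 0.018 to 0.191 over 15 pairs of clusters. Shares were thinned to 5000 UMIs per cell, which every cell had. Doublets were called with Scrublet. Named genes are the 8 members, per member the 3 genes most like it, and per pathway list the 3 with most UMIs. Some genes that this rule names are not reported here. Locations are from GENCODE vM21, promoters from RefSeq. The members and lists were chosen with earlier results of these data known. The other alternatives were a fit without the filter, one with a replicate block, other clusterings and bins, and each mouse alone.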

Additional observations from a re-analysis of the deposited data

How the results depend on the processing

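Of 35 member changes tested, 22 were called, and none of these 22 changed sign under any of the 9 other fits or in either mouse alone. Of the 22, 17 kept their call in all 9 other fits, and the 5 that did not are step 1 of Kcnu1, steps 2 and 3 of Adcy10, step 4 of Slc26a8 and the last of Atp1a4, given with their values above. The number of members called higher at step 4 was 2 with the mouse as a replicate block, that called lower there was 1 with the 2000 most variable genes and 1 with Leiden clusters, and the number called higher at the last step was 0 with total counts, against 1, 2 and 1 as reported. For the genes of the pathway lists, the number called lower was 14 at step 1 with Leiden clusters, 12, 8 and 9 at step 3 with total counts, the replicate block and the 2000 most variable genes, and 7 at step 4 with the 2000 most variable genes and 7 with Leiden clusters, and the number called higher at the last step was 2 with total counts, against 7, 5, 11 and 8 as reported. Other fits moved the numbers called lower at step 4 upward. With total counts 3 members and 16 list genes were called lower there, and without the filter also 3 and 16. The replicate block changed no call of a member beyond those given above, and moved the other counts of list genes by at most 2. Uncalled changes that changed sign were those of Lrrc52 at step 1 (-0.28 with DESeq2, -0.20 with total counts, -0.50 with the 2000 most variable genes, -0.26 with Leiden clusters) and step 4 (-0.21 with total counts, -0.22 without the filter), of Slc9c1 at the last (-0.44, -0.058 and -0.47 with total counts, the 2000 most variable genes and Leiden clusters), and of Adcy10 at step 4 (-0.47, -0.49, -0.12, -0.14 and -0.0038 with total counts, without the filter, with the 2000 most variable genes, with Leiden clusters and without doublets) and the last (-0.34 with total counts). In 1 mouse alone, Lrrc52 at step 1 was 1.82 in mouse 2 and -1.23 in mouse 1, and Adcy10 at step 4 was -0.013 in mouse 2. The cause was not tested. K = 10 and clustering with the listed genes kept changed no call of a member. The highest group of a member changed with UMIs per cell in place of CPM for Atp1a4 and Atp2b4, and for Hvcn1 after thinning and in mouse 2 alone, and under no other alternative. Called changes that moved by over 1.5-fold on the linear scale were, besides those given above (Kcnu1 and Slc26a8 at step 1, Atp1a4 at the last), those at the last step of Kcnu1 (-2.61) and Lrrc52 (-2.90) with total counts, of Slc9c1 at step 4 (-1.45 with Leiden clusters) and of Atp2b4 at step 3 (-2.77 with the 2000 most variable genes). Slc9c1 was also called without doublets at steps 2 and 3 (-0.48 and -0.43) and with the 2000 most variable genes at step 3 (-0.47), and Kcnu1 without the filter at step 4 (-0.72). A mouse alone leaves no spread to test, so only fold changes were computed. With 2 mice and 1 library each, animal and library cannot be told apart, and levels of a few UMIs, as for Hvcn1 and late Atp2b4, are limited by depth.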
